A study of Danio rerio with 22 samples.

Results

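The 2 zebrafish genes ENSDARG00000020711 and ENSDARG00000078069 are both paired with the symbol RRM2, the small subunit of ribonucleotide reductase, and are described here by hybrid, age and tissue. They are 2 of the 32057 genes in each file and were found by their Ensembl identifiers. They were chosen by their levels and fold changes in W- against Z-hybrid germ cells at the different ages, so every value of W- against Z-hybrid for these genes is given as a description, with no test. The libraries of the age, trunk and method comparisons also entered those differences or share libraries with them, and their tests are no independent support for the choice. No sequence or position is given for either gene.

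Ribonucleotide reductase makes the building blocks of DNA by turning ribonucleotides into deoxyribonucleotides. The enzyme joins a large subunit, RRM1, with a small subunit that carries the radical needed for the reaction. In mammals the small subunit RRM2 is made in S phase under E2F factors and is removed later in the cycle through cyclin F (CCNF) and FZR1, whereas RRM2B is a small subunit that also serves cells outside S phase.

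The study asked how female and male zebrafish germ cells come to differ before the gonads look different. W-hybrid larvae came from Nadia females of the WW genotype crossed to Tg(ziwi:GFP) fish of the Tüpfel long fin strain. Z-hybrid larvae came from ZZ Nadia fathers and mothers of the same transgenic strain, so the strain of the mother differed between the hybrids. All germ cell libraries therefore came from hybrid larvae that carry the ziwi:GFP transgene, and each was made from GFP-positive cells sorted from the pooled gonads of many larvae. By the study's methods, more germ cells were obtained at 12 than at 10 dpf, and the most at 14 dpf. The number of sorted cells and age therefore cannot be told apart. The files hold 3 W-hybrid and 3 Z-hybrid libraries at 10 dpf (days post fertilization) and 4 and 4 at 12 dpf by Smart-seq, and 2 W-hybrid and 1 Z-hybrid library at each of 12 and 14 dpf by Quartz-seq. There are also 2 Smart-seq libraries of trunk cells at 10 dpf, which served the study as a negative control and whose hybrid is not in the labels. Replicates are separate sorted batches, and the p-values measure the spread between batches.

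Total expected counts were 13556577 to 18321692 per Smart-seq library and 13828829 to 37224647 per Quartz-seq library, and no library was a copy of another. The 14 germ cell markers found summed to 3372 to 6148 TPM, the authors' unit of transcript abundance per length, in the Smart-seq germ cells, against 2.55 and 3.16 TPM in the trunk libraries. The trunk libraries differed from each other in makeup. Muscle markers summed to 5904 TPM in trunk replicate 1 and 93.3 TPM in trunk replicate 2, and epidermis markers to 30509 and 87384 TPM. One Quartz-seq library also stood apart, with muscle markers at 3686 TPM in replicate 2 of the W-hybrid at 12 dpf and 256 TPM in replicate 1.

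Both rrm2 genes were well expressed in germ cells, and their levels per length can be compared in TPM. Over the 20 germ cell libraries ENSDARG00000020711 ranged between 40.2 and 210 TPM with a median of 80.7 TPM, and ENSDARG00000078069 between 17.9 and 264 TPM with a median of 95.9 TPM. In the 14 Smart-seq germ cell libraries RRM1 had 39.2 to 87.6 TPM and RRM2B 13.1 to 25.8 TPM, and RRM2B was below both rrm2 genes in each of these libraries.

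At 10 dpf the gene that differed between the hybrids was ENSDARG00000020711. It had 114, 69.6 and 80.6 TPM in the W-hybrid, against 49.4, 42.2 and 48.3 TPM in the Z-hybrid. The log2 fold changes between the hybrids were estimated by edgeR on scaled counts and can differ from ratios of TPM. For this gene the log2 fold change was 1.27, and the log2 ratio of the mean TPM, with 1 added, was 0.90. Every W-hybrid library lay above every Z-hybrid library. A gap of this kind, with the W-hybrid higher, was found for 9.28% of 20080 genes. Epidermis and muscle markers also separated the hybrids at 10 dpf, whereas blood and gonadal somatic markers overlapped. Blood markers summed to 10.04 to 15.8 TPM in W-hybrid libraries, against 12.2 to 18.2 TPM in Z-hybrid libraries. Gonadal somatic markers summed to 23.3 to 44.35 TPM in the W-hybrid, against 31.8 to 37.8 TPM in the Z-hybrid. Epidermis markers summed to 120, 75.3 and 88.9 TPM in W-hybrid libraries, against 61.6, 58.0 and 62.2 TPM in Z-hybrid libraries. Muscle markers summed to 114, 152 and 134 TPM in the W-hybrid, against 107, 102 and 83.3 TPM in the Z-hybrid. Germ cell markers summed to 3372 to 5051 TPM in W-hybrid libraries, against 4814 to 6148 TPM in Z-hybrid libraries, and the part of these in the result was not tested.

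ENSDARG00000078069 did not separate the hybrids at 10 dpf. It had 72.6, 118 and 134 TPM in the W-hybrid, against 86.2, 134 and 106 TPM in the Z-hybrid. The ranges overlapped almost entirely, and the log2 fold change was 0.14.

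At 12 dpf by Smart-seq it was the other gene that separated the hybrids. ENSDARG00000078069 had 116, 158, 75.7 and 126 TPM in the W-hybrid, against 20.9, 42.4, 27.8 and 44.9 TPM in the Z-hybrid. All 4 W-hybrid libraries were above all 4 Z-hybrid libraries, with a log2 fold change of 1.48, and 3.08% of 20066 genes had such a gap with the W-hybrid higher. ENSDARG00000020711 had 80.8, 107, 49.1 and 45.1 TPM in the W-hybrid, against 106, 210, 119 and 119 TPM in the Z-hybrid. It was lower in the W-hybrid, with a log2 fold change of -1.09, and the ranges met at a single pair of libraries, 107 TPM in W-hybrid replicate 2 and 106 TPM in Z-hybrid replicate 1.

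**Figure D1:**
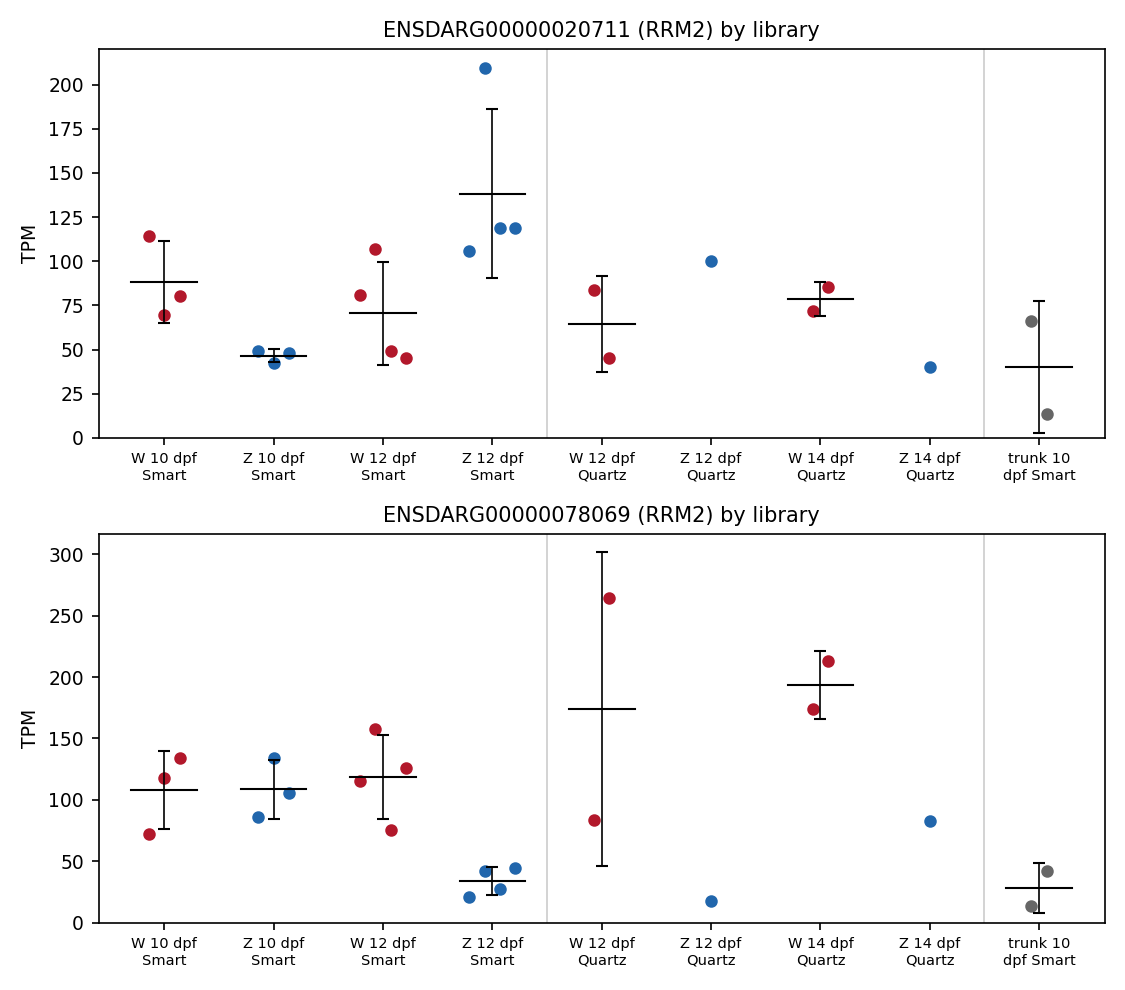
TPM of ENSDARG00000020711 (upper panel) and ENSDARG00000078069 (lower panel) in each library, with W-hybrid in red, Z-hybrid in blue and trunk in grey. Points are libraries, horizontal lines are group means and bars are SD where a group has more than 1 library. In the 12-dpf Smart-seq Z-hybrid the 4 points of ENSDARG00000020711 lie between 106 and 210 TPM and those of ENSDARG00000078069 between 20.9 and 44.9 TPM.

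The Quartz-seq libraries have only 1 Z-hybrid library at each age. The 12-dpf Z-hybrid library held 13828829 expected counts, against 25610705 and 37224647 in the W-hybrid. Genes with at least 10 counts numbered 16597 and 16617 in the 12- and 14-dpf Z-hybrid libraries, against 18966 to 20378 in the W-hybrid libraries. The part of this in the results was not tested. At 12 dpf ENSDARG00000078069 had 83.8 and 264 TPM in the W-hybrid, against 17.9 TPM in the Z-hybrid, and ENSDARG00000020711 had 83.8 and 45.5 TPM in the W-hybrid, against 99.96 TPM in the Z-hybrid. The log2 fold changes were 2.80 and -0.46. Over all genes the median was 0.31 (log2). The direction of each was that of the Smart-seq libraries of the same age, but both genes were chosen by this contrast, so the likeness is no support. The 264 TPM was in W-hybrid replicate 2, the library with muscle markers at 3686 TPM. With so few libraries, 85.4% of 23154 genes had both W-hybrid values above or both below the Z-hybrid value.

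At 14 dpf both genes were higher in the W-hybrid. ENSDARG00000078069 had 174 and 213 TPM in the W-hybrid, against 83.1 TPM in the Z-hybrid. ENSDARG00000020711 had 71.8 and 85.4 TPM in the W-hybrid, against 40.2 TPM in the Z-hybrid. Both log2 fold changes were 0.72, beside a median of 0.28 over all genes. The log2 ratios of the mean TPM, with 1 added, were 1.21 for ENSDARG00000078069 and 0.95 for ENSDARG00000020711. Values of the hybrids that lay apart in this way, in either direction, were found for 80% of 23154 genes.

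Within the Z-hybrid, the 2 genes moved in opposite directions between 10 and 12 dpf. ENSDARG00000020711 averaged 138 ± 47.9 TPM at 12 dpf (SD, n = 4) and 46.6 ± 3.88 TPM at 10 dpf (SD, n = 3), and ENSDARG00000078069 averaged 34.0 ± 11.6 TPM at 12 dpf (SD, n = 4) and 109 ± 24.0 TPM at 10 dpf (SD, n = 3). The ages did not overlap for either gene. Such gaps were found for 3.24% of 21675 genes with 12 dpf higher and for 15.9% with 12 dpf lower.

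By edgeR's quasi-likelihood test on the counts of the 14 Smart-seq germ cell libraries, ENSDARG00000020711 rose in Z-hybrid germ cells by a log2 fold change of 1.99 (SE 0.31, adjusted p = 0.00885). ENSDARG00000078069 fell by 1.07 on the log2 scale (SE 0.26, adjusted p = 0.0379 by edgeR). Both RRM2 genes were called, where a call asks for an adjusted p below 0.05, at least a 1.5-fold change and more than 5 TPM on average at the age with more. In all, 1.58% of 21675 genes were called, 1.25% higher and 0.332% lower. The Z-hybrid libraries of both ages also entered the W- against Z-hybrid differences by which the 2 genes were chosen. Their p-values and calls are therefore not independent evidence of a change with age.

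The rise of ENSDARG00000020711 lost its call without Z-hybrid 10-dpf replicate 2 (adjusted p = 0.0973 by edgeR) or replicate 3 (adjusted p = 0.0679), with log2 fold changes of 1.96 and 1.95. The fall of ENSDARG00000078069 lost its call under more of the alternatives. By edgeR its adjusted p was 0.0721 in a fit of the 7 Z-hybrid libraries alone, 0.0858, 0.167 and 0.112 without 10-dpf replicates 1, 2 and 3, and 0.103 and 0.0647 without 12-dpf replicates 3 and 4. The count fold changes scale libraries by TMM (trimmed mean of M-values), on which the median of all genes was 0.0039 (log2), whereas the mean TPM of the 11741 genes above 5 TPM in either group had a median log2 ratio of -0.18. On the TPM scale the log2 ratios of the means were 1.55 for ENSDARG00000020711 and -1.65 for ENSDARG00000078069. TPM is also divided by an estimated gene length, which differed between the ages. For ENSDARG00000078069 it was 2072 bases at 12 dpf and 1572 to 1681 bases at 10 dpf. For ENSDARG00000020711 it was 2019 to 2037 bases at 12 dpf and 1638 to 1930 bases at 10 dpf.

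Germ cell markers summed to 3710 to 4758 TPM in the Z-hybrid at 12 dpf and 4814 to 6148 TPM at 10 dpf. Muscle markers summed to 98.7 to 152 TPM at 12 dpf and 83.3 to 107 TPM at 10 dpf, and gonadal somatic markers to 21.5 to 27.3 TPM at 12 dpf and 31.8 to 37.8 TPM at 10 dpf. Their part in the result was not tested. In bulk samples such as these, fewer cells of a type and less RNA per cell cannot be told apart.

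Within the W-hybrid no change with age was detected for either gene. ENSDARG00000020711 averaged 70.5 ± 29.1 TPM at 12 dpf (SD, n = 4) and 88.1 ± 23.2 TPM at 10 dpf (SD, n = 3), with a log2 fold change of -0.39 (SE 0.29, adjusted p = 0.597 by edgeR). ENSDARG00000078069 averaged 119 ± 33.9 TPM at 12 dpf (SD, n = 4) and 108 ± 31.7 TPM at 10 dpf (SD, n = 3), with a log2 fold change of 0.24 (SE 0.26, adjusted p = 0.724 by edgeR). In this comparison edgeR called 0 of 21675 genes, a share of 0%, while 2744 genes had an unadjusted p under 0.05 and DESeq2 called 56 genes higher and 47 lower. The RRM2 values of the ages overlapped for both genes, whereas 11% of the genes had ages that did not overlap. For a difference of the age changes between the hybrids no values of these 2 genes are given, since the choice of the genes used that contrast. Run over all 21675 genes, these 2 among them, that contrast had 0 genes with an adjusted p under 0.05 by edgeR.

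From 12 to 14 dpf the W-hybrid could be followed by Quartz-seq only, with 2 libraries at each age. The log2 fold changes were 0.19 for ENSDARG00000020711 (SE 0.33, adjusted p = 1 by edgeR) and 0.095 for ENSDARG00000078069 (SE 0.39, adjusted p = 1 by edgeR). The share of genes called was 0.013%, and the sign of both RRM2 values depended on single libraries.

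The balance between the 2 genes was measured in each library as the log2 ratio of ENSDARG00000020711 over ENSDARG00000078069, with 1 added to each TPM, so that positive values mean more of ENSDARG00000020711. At 10 dpf it was 0.65, -0.75 and -0.72 in the W-hybrid, against -0.79, -1.64 and -1.11 in the Z-hybrid. In the 12-dpf Smart-seq libraries it was -0.51, -0.56, -0.62 and -1.46 in the W-hybrid, against 2.29, 2.28, 2.06 and 1.38 in the Z-hybrid. All 4 Z-hybrid libraries at 12 dpf had more of ENSDARG00000020711, and 9 of the other 10 Smart-seq germ cell libraries had more of ENSDARG00000078069.

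In shares of the summed TPM of both genes, ENSDARG00000020711 supplied 26.4% to 41.1% in the 12-dpf Smart-seq libraries of the W-hybrid, against 72.6% to 83.6% in those of the Z-hybrid. At 10 dpf its share was 37.1% to 61.1% in the W-hybrid, against 23.9% to 36.4% in the Z-hybrid. By Quartz-seq it was 50.0% and 14.7% in the 12-dpf W-hybrid, against 84.8% in the Z-hybrid, and 29.2% and 28.6% in the 14-dpf W-hybrid, against 32.6% in the Z-hybrid. By Quartz-seq the single Z-hybrid library at 14 dpf was therefore unlike the single Z-hybrid library at 12 dpf and near the W-hybrid at 14 dpf. Its 32.6% also lay within the Smart-seq ranges of both the 10-dpf Z-hybrid and the 12-dpf W-hybrid.

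**Figure D2:**
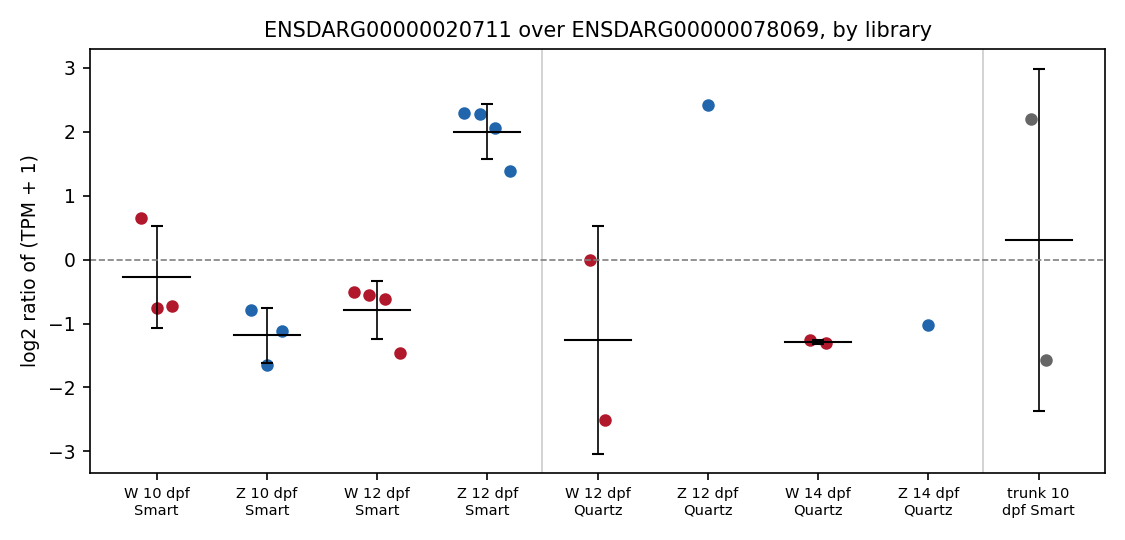
The log2 ratio of (TPM + 1) of ENSDARG00000020711 over that of ENSDARG00000078069 in each library, with group means as lines and SD as bars. Points above the dashed line at 0 have more of ENSDARG00000020711. The Z-hybrid libraries at 12 dpf by either method lie at 1.38 or above, and so does trunk replicate 1 at 2.21.

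The ratio was tested in 3 ways. Over the 14 Smart-seq germ cell libraries the mean ratio was 0.035 (log2). An exact two-sided sign-flip test of this mean gave p = 0.925 (adjusted p over the 3 tests = 0.933). The mean pools groups of opposite sign, such as the Z-hybrid at 12 dpf (1.38 to 2.29) and at 10 dpf (-1.64 to -0.79). It also depends on how many libraries each group has. The test took libraries of different groups as replicates, so it cannot show whether the 2 genes were balanced in germ cells. With ages permuted within each hybrid, the ratio was 1.34 higher on the log2 scale at 12 dpf than at 10 dpf (exact permutation test, two-sided, p = 0.0424 over 1225 arrangements, adjusted p over the 3 tests = 0.127), which does not pass after adjustment. The hybrids entered that mean with opposite signs. In the W-hybrid alone the difference was -0.51 (exact permutation test, two-sided, p = 0.571), and in the Z-hybrid alone it was 3.19 (exact permutation test, two-sided, p = 0.0571), which is the smallest p that 4 against 3 libraries allow. The same libraries entered the differences by which the 2 genes were chosen. These p-values are therefore not independent evidence that the balance changed with age.

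The TPM of both genes can be added, as each stands for a small subunit. At 12 dpf by Smart-seq it averaged 189 ± 58.5 TPM in W-hybrid libraries, against 172 ± 55.2 TPM in Z-hybrid libraries (SD, n = 4 each). The 2 chosen genes differed between the hybrids in opposite directions there, so their gaps offset each other in the sum. Whether 1 gene makes up for the other was not tested. At 10 dpf the sum was 196 ± 15.8 TPM in W-hybrid libraries, against 155 ± 20.3 TPM in Z-hybrid libraries (SD, n = 3 each). That gap lay in ENSDARG00000020711, at 88.1 against 46.6 TPM, while ENSDARG00000078069 averaged 108 and 109 TPM. The genes were chosen by this contrast, so neither the sum nor its ratio to RRM1 is an independent result. Relative to RRM1, their partner subunit, the 2 genes together at 12 dpf had 3.15 ± 0.97 times the RRM1 TPM in the W-hybrid, against 2.88 ± 0.71 times in the Z-hybrid (SD, n = 4 each). At 10 dpf RRM1 itself averaged 49.7 TPM in the W-hybrid, against 81.3 TPM in the Z-hybrid. The sum was then 4.05 ± 0.68 times the RRM1 TPM in the W-hybrid, against 1.92 ± 0.32 times in the Z-hybrid (SD, n = 3 each). These ratios are all from Smart-seq. By Quartz-seq the sum was below RRM1, at 0.34 and 0.72 times its TPM in the 12-dpf W-hybrid, against 0.30 times in the Z-hybrid. At 14 dpf it was 0.66 and 0.84 times in the W-hybrid, against 0.43 times in the Z-hybrid. Whether the sum exceeded RRM1 thus differed between the Smart-seq and Quartz-seq libraries, which came from separate experiments.

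Each gene is listed with several transcripts, 8 for ENSDARG00000020711 and 5 for ENSDARG00000078069, and the files give for each library a gene length that weights the transcripts by their estimated abundance. ENSDARG00000078069 was at the longest value seen, 2072 bases, in all 4 Smart-seq and the 1 Quartz-seq library of the 12-dpf Z-hybrid and in trunk replicate 1, and in no other of the 22 libraries. ENSDARG00000020711 had its 6 largest shares of the 2 genes in the same libraries. The length of ENSDARG00000078069 was 1652, 1821, 1975 and 1640 bases in the 12-dpf Smart-seq W-hybrid libraries, below all Z-hybrid libraries of that age, and 1.27% of 12321 genes had ranges apart with the W-hybrid shorter.

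Within the Z-hybrid the length of ENSDARG00000078069 was 2072 bases in each 12-dpf library, against 1681, 1572 and 1649 bases at 10 dpf, and 3.88% of 12436 genes were longer without overlap. It was 1863, 1525 and 1528 bases in the 10-dpf W-hybrid, and 1367 to 1494 bases in the 4 W-hybrid Quartz-seq libraries. The drop in level and the longer estimated length of ENSDARG00000078069 thus fell in the same libraries, and which transcripts held the reads was not analysed here. TPM is also divided by length, so the expected counts are given too, which were 590 to 1146 in the Z-hybrid at 12 dpf, against 1638 to 2740 at 10 dpf.

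ENSDARG00000020711 had its own pattern of length. It was at its longest value of 2037 bases in 11 of 22 libraries and between 2011 and 2031 bases in 6. The other 5 had 1930, 1907 and 1638 bases in the Z-hybrid at 10 dpf, 1838 bases in 12-dpf Smart-seq W-hybrid replicate 4 and 1712 bases in trunk replicate 2. The 3 Z-hybrid libraries at 10 dpf lay below all 3 W-hybrid libraries of that age, at 2037, 2025 and 2037 bases, and 7.38% of 12617 genes had ranges apart with the W-hybrid longer. RSEM shares reads that map to several places among genes and transcripts, and the expected counts of both genes were whole to within 0.01 in 22 of 22 libraries.

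**Figure D3:**
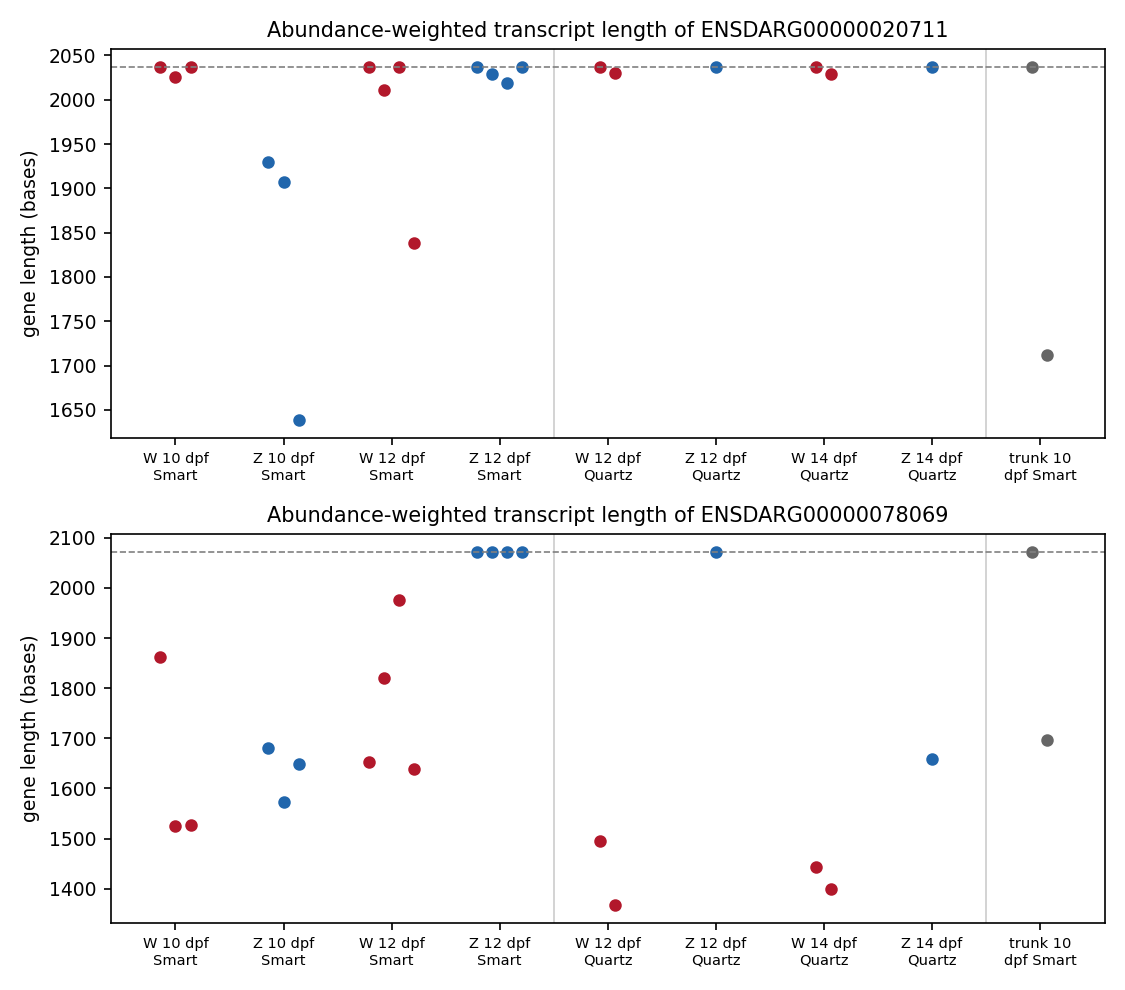
Abundance-weighted gene length in bases of ENSDARG00000020711 (upper panel) and ENSDARG00000078069 (lower panel) in each library; the dashed lines mark the longest value. The vertical axes do not start at 0. The 5 Z-hybrid libraries at 12 dpf and trunk replicate 1 lie on the line at 2072 bases in the lower panel.

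In trunk cells the 2 libraries went opposite ways. Trunk replicate 1 had 66.4 TPM of ENSDARG00000020711 and 13.6 TPM of ENSDARG00000078069, and trunk replicate 2 had 13.5 TPM and 42.3 TPM. For ENSDARG00000020711 the germ cells at 10 dpf (42.2 to 114 TPM) overlapped with the trunk, and for ENSDARG00000078069 all 6 germ cell libraries (72.6 to 134 TPM) were above both trunk libraries, as were 52.2% of 22024 genes. By edgeR the log2 fold change of germ cells against trunk was -0.078 for ENSDARG00000020711 (SE 0.41, adjusted p = 0.872) and 0.85 for ENSDARG00000078069 (SE 0.38, adjusted p = 0.0669). Neither RRM2 gene was called, whereas 43.8% of all genes were, 23.7% higher and 20% lower in germ cells. The mean TPM of the 13111 genes above 5 TPM in either tissue had a median log2 ratio of 0.99.

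The answer depends on which trunk library is kept. Without trunk replicate 1, the log2 fold change of germ cells against trunk was 1.35 for ENSDARG00000020711 and 0.21 for ENSDARG00000078069. Without trunk replicate 2, it was -0.78 for ENSDARG00000020711 and 1.97 for ENSDARG00000078069. In each of these fits the lone trunk library was taken to vary like the germ cell groups. The trunk spread was then not measured, and no p is given for these fits. With library size alone as the scale, the log2 fold change of ENSDARG00000020711 was 0.62 (adjusted p = 0.256 by edgeR), of the opposite sign, and ENSDARG00000078069 was called (1.73, adjusted p = 0.00131). That scale moved the median of all genes to 1.102 (log2), against 0.35 by TMM. The muscle and epidermis marker sums of the trunk libraries differed as given above, and their part in the result was not tested. The ratio of the 2 genes averaged 0.28 (log2) less over the 14 Smart-seq germ cell libraries than over the 2 trunk libraries, well within the trunk spread (exact permutation test, two-sided, p = 0.933, adjusted p over the 3 tests = 0.933). As said above, this germ cell mean pools groups of opposite sign, so the test cannot show whether the balance differed between tissues.

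The library method could be compared in the W-hybrid at 12 dpf. The study made the Quartz-seq libraries in an earlier experiment and the Smart-seq libraries in a later one, so method and experiment cannot be told apart. Germ cell markers summed to 22704 and 21178 TPM in these Quartz-seq libraries, against 3767 to 5351 TPM in the Smart-seq libraries. By Quartz-seq against Smart-seq, the log2 fold change was -0.42 for ENSDARG00000020711 (SE 0.37, adjusted p = 0.358 by edgeR) and -0.16 for ENSDARG00000078069 (SE 0.36, adjusted p = 0.722), while 41.7% of 21307 genes were called. With library size alone ENSDARG00000020711 was called lower (-0.93, adjusted p = 0.0485 by edgeR), on a scale that moved the median of all genes to -0.52 (log2), against -0.037 by TMM. Without Quartz-seq replicate 2, the library with high muscle markers, the log2 fold change of ENSDARG00000078069 was -1.10. A lone Quartz-seq library was left in that fit, so no p is given. The large subunit behaved otherwise between methods. RRM1 had 492.97 and 431 TPM by Quartz-seq, against 65.8, 79.7, 63.5 and 39.6 TPM by Smart-seq, and was called (log2 fold change 2.58, SE 0.25, adjusted p = 9.44e-07 by edgeR). Levels of RRM1 and ratios to it therefore differ between the libraries of the 2 methods, and the hybrids are compared only within a method.

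RRM1 and RRM2B were compared between the hybrids in the same way. RRM1 at 10 dpf had 45.3, 39.9 and 64.0 TPM in the W-hybrid, against 87.4, 83.2 and 73.3 TPM in the Z-hybrid, and the log2 fold change was -0.54 (SE 0.14, adjusted p = 0.0218 by edgeR), below the fold needed for a call. RRM2B had 23.7, 22.2 and 25.8 TPM in the W-hybrid, against 22.3, 16.5 and 17.9 TPM in the Z-hybrid, and its log2 fold change of 0.56 (SE 0.17, adjusted p = 0.0384 by edgeR) also missed the fold. At that age 7.11% of 20080 genes were called. At 12 dpf by Smart-seq the log2 fold changes were -0.063 for RRM1 (SE 0.24, adjusted p = 0.946) and -0.0083 for RRM2B (SE 0.23, adjusted p = 0.992), and 0.145% of 20066 genes were called.

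**Figure D4:**
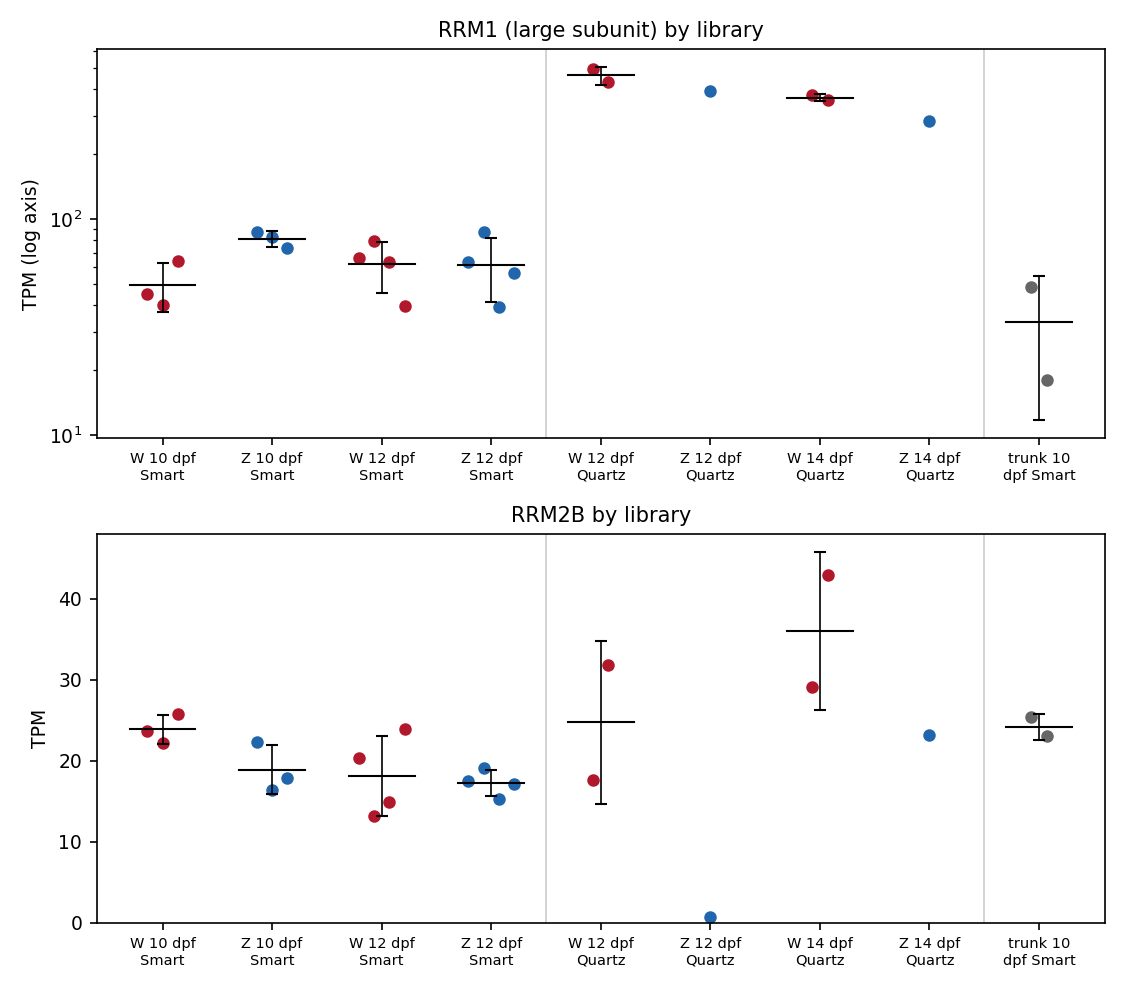
TPM of RRM1 on a log axis (upper panel) and RRM2B on a linear axis (lower panel) in each library, with group means as lines and SD as bars. RRM1 lies between 285 and 492.97 TPM in the Quartz-seq libraries and between 39.2 and 87.6 TPM in the Smart-seq germ cells. The 12-dpf Quartz-seq Z-hybrid library has 0.74 TPM of RRM2B.

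With age, neither RRM1 nor RRM2B was called. In the Z-hybrid, 12 against 10 dpf, the log2 fold change was -0.17 for RRM1 (SE 0.23, adjusted p = 0.728 by edgeR) and 0.15 for RRM2B (SE 0.21, adjusted p = 0.728). In the W-hybrid it was 0.29 for RRM1 (SE 0.23, adjusted p = 0.619 by edgeR) and -0.43 for RRM2B (SE 0.21, adjusted p = 0.395). The age change was tested for a difference between the hybrids, W minus Z, and gave 0.46 for RRM1 (adjusted p = 0.489) and -0.58 for RRM2B (adjusted p = 0.318), with 0 of 21675 genes under an adjusted p of 0.05 by edgeR. Between germ cells and trunk RRM2B was lower in germ cells, with a log2 fold change of -1.0003 (SE 0.17, adjusted p = 3.43e-04 by edgeR), a call that was lost on library size alone (-0.19, adjusted p = 0.359). RRM2B had 16.5 to 25.8 TPM in the germ cells at 10 dpf, against 23.1 and 25.3 TPM in the trunk.

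By Quartz-seq at 12 dpf RRM2B had 17.7 and 31.8 TPM in the W-hybrid, against 0.74 TPM and 5 counts in the Z-hybrid. The log2 fold change was 5.15. That Z-hybrid library had the fewest counts of the Quartz-seq libraries, as given above, and the part of this in the result was not tested. With 1 Z-hybrid library at each age by Quartz-seq the spread of the Z-hybrid was not measured, and edgeR took it to be that of the W-hybrid batches. On that footing 21.5% of 23154 genes were called at 12 dpf, RRM2B among them, and no p is given for W against Z by Quartz-seq. By Smart-seq at the same age RRM2B had 13.1 to 24.0 TPM in the W-hybrid, against 15.3 to 19.2 TPM in the Z-hybrid. At 14 dpf the Quartz-seq values were 29.2 and 42.9 TPM in the W-hybrid, against 23.2 TPM in the Z-hybrid. At that age 9.18% of 23154 genes were called on the same footing and RRM2B was not (log2 fold change 0.41).

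Genes that act with the small subunit were followed in 4 lists, namely dNTP supply (18 genes found, RRM1 and RRM2B among them), base synthesis (17), DNA replication (49) and regulators of RRM2 (19). In the Z-hybrid between 10 and 12 dpf the counts below stand beside 1.25% of all genes called higher and 0.332% called lower. The dNTP supply list had 1 gene called higher and 0 lower, with a median log2 fold change of 0.23 beside 0.0039 over all genes, and the one gene was TK2, the mitochondrial thymidine kinase (0.65, SE 0.17, adjusted p = 0.0479 by edgeR). Of the DNA replication list 2 were called higher and 0 lower, with a median of 0.15. They were the flap endonuclease FEN1 (0.70, adjusted p = 0.0451) and the replication protein A subunit RPA2 (0.60, adjusted p = 0.0451). None of the base synthesis list was called (0 of 17, median -0.072).

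The regulator list had 1 gene higher and 1 lower in that comparison. E2F5, a transcription factor of the E2F family, averaged 182 TPM at 12 dpf and 59.2 TPM at 10 dpf (log2 fold change 1.88, SE 0.40, adjusted p = 0.0315 by edgeR). RB1, the retinoblastoma protein that binds E2F factors, averaged 19.2 TPM at 12 dpf and 43.9 TPM at 10 dpf and fell by 0.98 on the log2 scale (SE 0.25, adjusted p = 0.0468 by edgeR). The median of the list was -0.21. None of these list calls was made in the Z-hybrid libraries alone, where the dNTP supply, DNA replication and regulator lists had 0 genes called. The directions of E2F5 and RB1 were the same in the W-hybrid, without a call. E2F5 averaged 120 TPM at 12 dpf and 52.1 TPM at 10 dpf there (log2 fold change 1.16, adjusted p = 0.264 by edgeR). RB1 averaged 19.3 TPM and 26.0 TPM (-0.44, adjusted p = 0.472 by edgeR).

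Between the hybrids at 10 dpf, 3 genes of the dNTP supply list were called with the W-hybrid higher and 1 with it lower, and the median log2 fold change was 0.36 beside -0.034 over all genes. Over all genes 3.05% were called higher and 4.06% lower. The epidermis and muscle marker sums were higher in each W-hybrid library of that age, as given above, and their part in these calls was not tested. The thymidylate synthase TYMS (0.65, adjusted p = 0.0075 by edgeR), the deoxycytidine kinase DCK (0.82, adjusted p = 0.0129) and the dihydrofolate reductase dhfr (0.61, adjusted p = 0.0173) were higher, and the folate enzyme SHMT2 was lower (-1.43, adjusted p = 0.0151). In base synthesis 0 were higher and 3 lower, namely GART, PFAS and ADSS1, enzymes of purine synthesis, with log2 fold changes of -1.32, -0.93 and -0.94. DNA replication had 4 genes higher and 4 lower, among them the licensing factor CDC6 (0.87, adjusted p = 0.00182 by edgeR) and the helicase subunit MCM7 (-1.12, adjusted p = 0.00889). The regulators had 2 higher, CHEK1 (0.73) and E2F4 (0.69), and RBL1 (-0.86) and e2f2 (-0.79) were among those called lower, all with adjusted p under 0.05.

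At 12 dpf by Smart-seq edgeR called 0 genes of the 4 lists between the hybrids. Their median log2 fold changes were -0.057, -0.11, -0.086 and 0.0011 in the order above, beside -0.0050 over all genes. In the W-hybrid between 10 and 12 dpf 0 genes of the 4 lists were called, with medians of -0.090, -0.24, -0.097 and -0.12 beside 0.037 over all genes. The 12- to 14-dpf comparison of the W-hybrid also had 0 called.

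The Quartz-seq comparisons of the hybrids rest on 1 Z-hybrid library at each age, as said above for RRM2B, and their calls have no measured spread for that hybrid. At 12 dpf 7 of the dNTP supply list were higher in the W-hybrid and 0 lower, and 16 of the DNA replication list were higher and 1 lower, with medians of 1.18 and 0.87 beside 0.31 over all genes, of which 13.3% were called higher and 8.14% lower. Base synthesis had 5 higher and 1 lower (median 0.51) and the regulators 3 higher and 1 lower (median 0.65). TYMS averaged 277 TPM in the W-hybrid, against 38.5 TPM in the Z-hybrid. At 14 dpf 2 of the dNTP supply list were higher and 0 lower, dhfr (2.12) and TYMS (1.63), with a median of 0.41 beside 0.28 over all genes. DNA replication then had 5 higher, led by the licensing inhibitor GMNN (2.90) and the polymerase subunit POLA2 (2.46), and 1 lower (median 0.27). Base synthesis had 0 higher and 1 lower (median -0.12) and the regulators 0 higher and 2 lower (median 0.27), while 4.23% of all genes were higher and 4.95% lower.

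In germ cells against trunk, 48 of 49 genes of the DNA replication list were called higher, and of the 18 genes of the dNTP supply list 12 were higher and 3 lower, with medians of 2.17 and 1.34 beside 0.35 over all genes. Over all genes 23.7% were called higher and 20% lower. Base synthesis had 12 of 17 genes higher and 0 lower (median 1.16). DCTPP1, which breaks down dCTP, averaged 452 TPM in germ cells, against 7.38 TPM in the trunk (log2 fold change 5.08, adjusted p = 5.41e-09 by edgeR). Of the 19 regulators 10 were higher and 1 lower (median 0.91), among them CHEK1 (3.64) and CCNF (2.48), with CCNF at 57.7 TPM in germ cells, against 5.61 TPM in the trunk. Neither RRM2 gene was among the genes called, as given above.

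The genes with the most similar pattern were sought among 10951 genes over the 14 Smart-seq germ cell libraries, by Pearson's r of log2(TPM + 1). For ENSDARG00000020711 they were TRIR (r = 0.84), the histone variant gene H2AZ2 (0.83), the chromatin factor gene RBBP4 (0.83), ACOT12 (0.82) and mrnip (0.82). In the 6 Quartz-seq libraries their r to the same gene was 0.11, -0.44, -0.18, -0.51 and -0.29, so the likeness was not seen there. The libraries share hybrid and age groups, and these values are descriptions. Of these, mrnip had 49.4 to 78.0 TPM at 12 dpf and 37.0 to 43.6 TPM at 10 dpf in the Smart-seq Z-hybrid libraries.

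For ENSDARG00000078069 the most similar genes were ndr1, a Nodal ligand (r = 0.87), the chemokine receptor gene CCR6 (0.85), the integrin gene ITGB1 (0.83), TTLL1 (0.82) and fbxo44.5 (0.81). In the 6 Quartz-seq libraries their r to the same gene was -0.37, 0.85, 0.91, -0.20 and 0.091. ITGB1 and CCR6 thus had a high r by both methods. By ranks (Spearman) over the 14 Smart-seq libraries, ITGB1 had only 0.55 and ranked 298. RRM2B, with an r of 0.25 by Smart-seq, had 0.95 over the 6 Quartz-seq libraries. How many genes reach such an r over 6 libraries was not examined, so the likeness by both methods carries little weight. ITGB1 had 8.25 to 15.1 TPM in the Z-hybrid at 12 dpf and 20.8 to 24.4 TPM at 10 dpf by Smart-seq, and CCR6 had 0.65 to 4.07 TPM and 5.70 to 9.49 TPM. The r between the 2 rrm2 genes was -0.57 over the 14 Smart-seq germ cell libraries, and ENSDARG00000078069 ranked 10161 of 10951 for likeness to ENSDARG00000020711. Both genes were chosen by their differences between the hybrids in these libraries, so this r and rank are not independent of the choice.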

How the data were processed

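Germ cells of W- and Z-hybrid larvae and trunk cells were sequenced in 22 libraries. According to the submitters' processing notes, STAR 2.7.7a and RSEM 1.3.1 were used with GRCz11. The authors deposited for each library the expected count per gene estimated by RSEM, the TPM, and a gene length in bases averaged over transcripts by abundance. The method of each library was taken from its description, which gives Quartz-seq for 6, although the shared protocol names a Smart-seq kit.

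After rounding of the expected counts, robust quasi-likelihood fits were made with edgeR 4.0.16 (R 4.3.3), with TMM scaling and the filterByExpr filter, and p-values were adjusted by Benjamini-Hochberg over all genes tested. The SE of a log2 fold change is its size divided by the square root of F. A gene was called when its adjusted p was below 0.05, it changed at least 1.5-fold and its mean in the group with more was over 5 TPM. The age fits used all 14 Smart-seq germ cell libraries and the Quartz-seq fits all 6. Ratios used a pseudocount of 1 and exact permutation tests in Python 3.11.15. Scripts were tested on simulated data. Alternatives were DESeq2 1.42.0, library size alone, a weaker filter on counts, a fit of 1 hybrid, the replicate number as a block, other pseudocounts and leaving out each library in turn.

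The 2 genes and the gene lists were chosen with earlier results of these data known. Of each list, only the 5 called genes of greatest absolute change could be named, along with RRM1, RRM2B and the 5 genes most similar to each rrm2 gene. Of the symbols asked for, 18 of 22 were found for dNTP supply, 17 of 23 for base synthesis, 49 of 49 for DNA replication and 19 of 22 for regulators. No genome was used, and the gene table given (GRCz12tu) could not be linked to the 2 identifiers. The result of 1 gene of the regulator list is not reported here.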

Additional observations from a re-analysis of the deposited data

Results flagged for a closer look

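Groups of 4 libraries were searched for a library far from the others, in 16 groups of values. Chance alone marks about 1 in 20 groups where the values are independent and normally spread. The lengths share a longest value, and the ratio and the sum reuse the same TPM, so that rate need not hold here. For the length of ENSDARG00000078069 in the 12-dpf Smart-seq Z-hybrid all values were 2072 bases, and no mark was possible. In all, 3 groups were marked. ENSDARG00000020711 had 210 TPM (209.64) in 12-dpf Smart-seq Z-hybrid replicate 2, where the next library had 119 TPM, and the gap was 0.876 of the range of the group. Without that library ENSDARG00000020711 still rose in the Z-hybrid between 10 and 12 dpf (log2 fold change 1.66, adjusted p = 0.0114 by edgeR). The gene length of ENSDARG00000020711 was 1838 bases (1838.28) in 12-dpf Smart-seq W-hybrid replicate 4, against 2011 to 2037 bases in the others. The log2 ratio of ENSDARG00000020711 over ENSDARG00000078069 was -1.46 in the same library, against -0.62 to -0.51 in the others. Without it the difference in ratio between 12 and 10 dpf was 1.45 (log2) over both hybrids (exact permutation test, adjusted p = 0.0943).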

How the results depend on the processing

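In the Z-hybrid, 12 against 10 dpf, the log2 fold changes of both rrm2 genes had the same sign under every alternative run. Leaving out 1 library gave 1.66 to 2.12 (log2) for ENSDARG00000020711 and -1.25 to -0.88 for ENSDARG00000078069, with calls lost as given above, and a fit of the Z-hybrid alone gave -1.06 for ENSDARG00000078069. In the W-hybrid, 14 against 12 dpf, leave-one-out values ran from -0.20 to 0.72 for ENSDARG00000020711 and -0.46 to 1.01 for ENSDARG00000078069. In germ cells against trunk they ran from -0.78 to 1.35 and from 0.21 to 1.97, and library size alone gave 0.62 and 1.73. By Quartz-seq against Smart-seq, ENSDARG00000020711 was -0.93 on library size alone, and ENSDARG00000078069 ran from -1.10 to 0.42 without 1 library. Between the hybrids at 12 dpf by Quartz-seq the values without 1 library were -0.99 to -0.077 for ENSDARG00000020711 and 1.87 to 3.35 for ENSDARG00000078069. The mean paralog ratio ran from -0.14 to 0.16.

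RRM1 and RRM2B values near 0 changed sign. At 12 dpf by Smart-seq, W against Z, they were 0.038 and 0.083 on library size alone, RRM2B was 0.0059 with the weaker filter, and without 1 library they ran from -0.20 to 0.21 and from -0.18 to 0.13. RRM1 in germ cells against trunk ran from -0.26 to 0.74, and RRM2B by Quartz-seq against Smart-seq from -0.55 to 0.29.

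Replicate numbers were not used to pair the libraries in the main fits. Correlations of same-numbered deviations were -0.11 to 0.16. Differently numbered libraries were not compared, so these values cannot show whether batches were shared. With the replicate block, germ cells against trunk gave 0.24 for ENSDARG00000020711 and 0.98 for ENSDARG00000078069 (adjusted p = 0.00947 by edgeR, called), RRM2B by method was 0.015, and no other call of the 2 rrm2 genes changed. The block reduced the Z-hybrid age calls over all genes to 29 higher and 14 lower, against 270 and 72 without it. Those counts were 621 and 320 by DESeq2, 109 and 128 on library size alone and 5 and 3 in the Z-hybrid alone. Without 1 library they ran from 0 to 867 and from 0 to 445, with 0 and 0 without 10-dpf replicate 2 or replicate 3. Over all genes, the W-hybrid age calls were 56 higher and 47 lower by DESeq2 and 32 and 5 in the W-hybrid alone, against 0 and 0. The W-against-Z calls at 10 dpf were 125 and 58 in a joint fit of the 10- and 12-dpf Smart-seq germ cells, against 613 and 815, and those at 12 dpf by Smart-seq were 60 and 39 by DESeq2, against 16 and 13. By Spearman in place of Pearson, 2 of the 5 genes most similar to ENSDARG00000020711 and 1 of the 5 for ENSDARG00000078069 stayed among the 5 highest.

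The single Z-hybrid Quartz-seq libraries and the 2 unlike trunk libraries limit what these comparisons can show.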
